A study of Mus musculus with 7 samples.

Results

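The receptors of the epidermal growth factor (EGF) family, their neuregulins and their other ligands were followed in sorted mouse glioma cells that differed in Ptprd, a receptor-type tyrosine phosphatase. The set holds 8 genes: the receptors Egfr, Erbb2, Erbb3 and Erbb4, the neuregulins Nrg1 and Nrg3, and the ligands Hbegf and Tgfa. They were chosen with earlier results of these data known. A gene was represented by its brightest probe set, that is, the probe set naming only that gene with the highest mean over the 7 arrays, and its other probe sets were set beside it. In all, 7 of the 8 genes had such a probe set, with 16 probe sets among the 22626 on the array, and the platform's annotation used here gives none for Nrg1. Of the 12393 genes on the array, 9243 passed a filter on dim probe sets, which asked for 2 or more arrays with a value over that array's 30th percentile, and 6 of the 8 genes were among them. Erbb4 lay below that percentile on all 7 arrays and was not tested.

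Tumours had been induced by cerebral injection, between days 1 and 3 after birth, of RCAS-PDGFB-GFP. This retrovirus of birds delivered PDGFB, a growth factor, together with GFP as a fluorescent tag. It enters only cells with the tv-A receptor, which Nestin-tvA mice express from the Nestin promoter, so the tumours arose from Nestin-expressing cells and were driven by a growth factor from a virus. Mice were taken when symptoms appeared or at 12 weeks, and GFP+DAPI- tumour cells were sorted. The groups were null (Ptprd-/-p16-/-, 3 arrays), heterozygous (Ptprd+/-p16-/-, 2 arrays) and wild type (Ptprd+/+p16-/-, 2 arrays). All of them, the wild type included, lacked p16, an inhibitor of the cell cycle, and the mice had a mixed genetic background (C57/BL6 and FVB/N). Arrays of a genotype are labelled as biological replicates, but whether an array stands for 1 mouse is not stated. The p-values therefore set differences between genotypes against the spread among these arrays, and they may not extend to other mice.

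ErbB receptors are tyrosine kinases that signal in pairs. EGF-type ligands are made as membrane-bound precursors that metalloproteases of the ADAM family cut free. EGFR binds TGF-alpha and heparin-binding EGF, ErbB2 has no known soluble ligand and serves as a partner for the others, and ErbB3 has a weak kinase and signals through its partners. Neuregulin 1 binds ErbB3 and ErbB4, and neuregulin 3 binds ErbB4. In the brain, neuregulins and ErbB receptors act between neurons and glia, including cells of the oligodendrocyte lineage, and EGFR is often amplified in human glioblastoma.

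Promoter windows are shown for Nrg3, the member that passed the test between genotypes, and for Egfr, a receptor that exceeded the 30th percentile on all 7 arrays and whose brightest probe set was lower on both wild-type arrays than on every other array. The windows run from 250 bases before to 50 bases after a start site in a table made from RefSeq, build GRCm38.p6. For Egfr this site is the first base of the annotated gene, and for Nrg3 it lies inside the outermost end of the annotated gene. Capitals mark matches to the motifs searched on both strands: the GC box GGGCGG, the box CCAAT, the TATA element TATAAA and the run CAGCATCAGC. The last is the most frequent run of 10 bases in the Nrg3 window and was thus chosen from it.

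Nrg3 (chr14:39473039-39473338, minus strand): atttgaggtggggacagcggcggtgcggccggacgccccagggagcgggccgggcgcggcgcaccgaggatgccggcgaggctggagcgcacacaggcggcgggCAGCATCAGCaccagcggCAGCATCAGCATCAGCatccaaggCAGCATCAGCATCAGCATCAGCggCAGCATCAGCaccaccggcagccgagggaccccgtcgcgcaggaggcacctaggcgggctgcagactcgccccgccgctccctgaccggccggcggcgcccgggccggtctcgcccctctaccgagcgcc

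Egfr (chr11:16751953-16752252, plus strand): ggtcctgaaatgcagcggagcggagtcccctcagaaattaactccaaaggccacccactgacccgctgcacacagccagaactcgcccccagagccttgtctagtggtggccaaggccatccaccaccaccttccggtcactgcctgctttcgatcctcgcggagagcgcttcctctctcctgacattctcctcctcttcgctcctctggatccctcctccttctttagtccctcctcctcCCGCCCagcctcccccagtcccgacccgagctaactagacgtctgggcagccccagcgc

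The Nrg3 window held CAGCATCAGC 7 times, counting copies that overlap each other, while 54 of 32851 promoter windows (0.164%) held it at all. It also held 36 CG dinucleotides, more than 93.8% of windows, and its bases were 74.3% G or C. The Egfr window held 1 GGGCGG box, in reverse orientation, as did 35.7% of windows in either orientation, and 15 CG dinucleotides, more than 65.4% of windows. CCAAT and TATAAA, found in 37.4% and 13.6% of windows, had 0 matches in both. These matches describe the sequence, and the arrays measured no binding to it.

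Facts of the whole series bear on every comparison. Ptprd itself, brightest probe set, stood at 9.61, 8.95 and 9.93 (log2) on null arrays, at 9.42 and 9.57 on heterozygous arrays and at 10.86 and 10.89 on wild-type arrays, so it separated wild type from both deficient groups and did not separate null from heterozygous. Whether these probe sets lie in the targeted part of the transcript is not known here. The heterozygous arrays stood apart: over all probe sets they correlated with null arrays at 0.976 to 0.987 and with wild-type arrays at 0.977 to 0.985, while null and wild-type arrays correlated at 0.990 to 0.995. Null replicate 1 and heterozygous replicate 1 carried both Xist and Y-linked RNA. Some results below, among them the calls for members and pathway genes, are also given without those arrays. The results for cell type markers are not. Summed markers of microglia and macrophages (log2 of the sum over 16 genes on the array, 14 of which passed the filter) lay at 9.83 to 10.40 on null, 11.15 to 11.52 on heterozygous and 9.66 to 10.12 on wild-type arrays. At the adjusted threshold 12 of the 14 rose in heterozygous against wild-type cells, as did 388 of all 9243 genes tested. All 8 markers of oligodendrocyte progenitors on the array passed the filter, and their sum lay at 15.57 to 15.65 on null, 15.01 to 15.33 on heterozygous and 15.73 on both wild-type arrays. At the same threshold 4 of the 8 were lower in heterozygous than in wild-type cells, as were 5.95% of all genes tested. In bulk RNA, fewer cells of a type and less RNA per cell cannot be told apart.

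Nrg3, which encodes a neuregulin that binds ErbB4, was the member that moved with genotype. Its level was 5.31, 5.40 and 5.57 (log2) on null arrays, 4.11 and 4.02 on heterozygous arrays and 5.68 and 6.27 on wild-type arrays. Both heterozygous arrays lay more than 1 log2 unit below every other array, the 3 null arrays lay between heterozygous and wild type, and no groups overlapped. In heterozygous against wild-type cells Nrg3 fell by 1.91 ± 0.20 on the log2 scale (SE, 95% interval of the difference -2.37 to -1.44, limma adjusted p = 0.0059), in a comparison in which 10.1% of all genes tested passed and 5.95% fell. In null against heterozygous cells it was higher by 1.36 ± 0.18 (interval 0.94 to 1.79, adjusted p = 0.0118, with 8.96% of genes passing and 5% higher). Both comparisons rest on the same pair of heterozygous arrays. In null against wild-type cells the log2 difference was -0.55 ± 0.18 (interval -0.97 to -0.12), with an unadjusted limma p of 0.0189 and an adjusted p of 0.8825, and 0% of genes passed in that comparison. The limma F test over the 3 genotypes gave an adjusted p of 0.0108, and 5.65% of genes passed it.

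**Figure D1:**
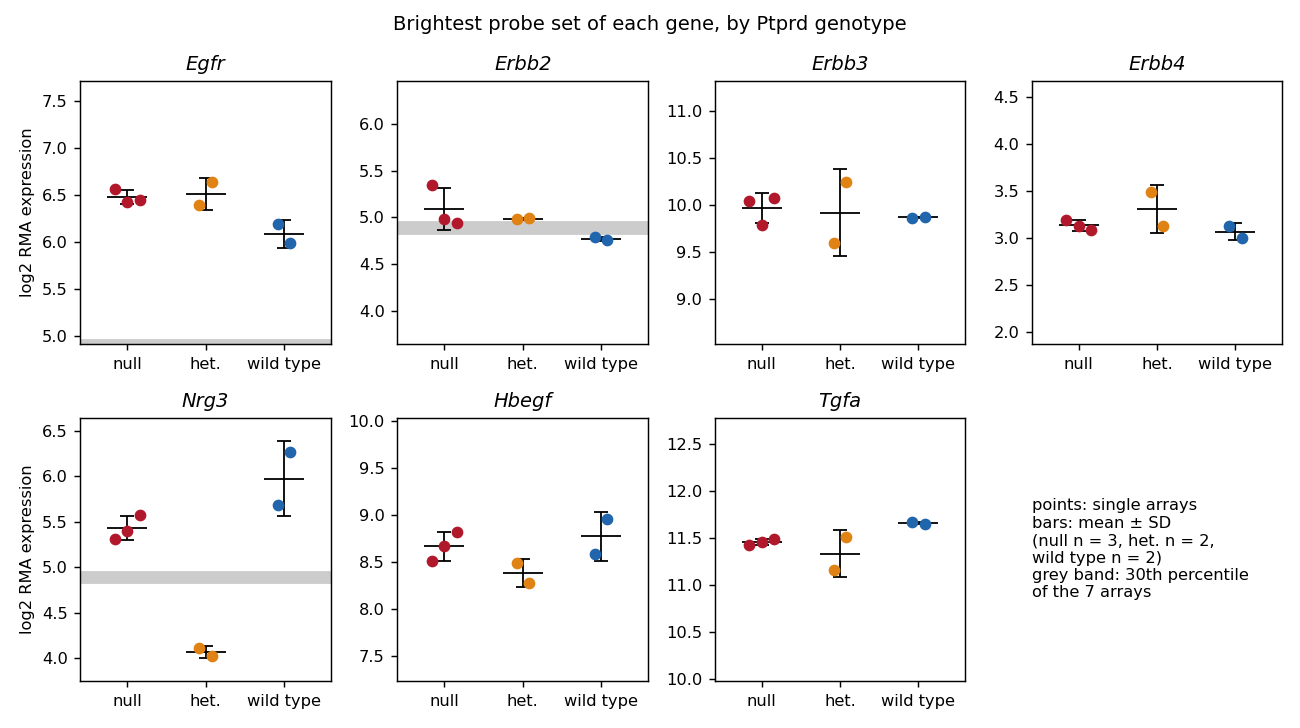
Log2 RMA expression of the brightest probe set of each gene (y axis) by Ptprd genotype (x axis: null, heterozygous, wild type). Points are arrays, bars are the mean and SD (n = 3, 2 and 2), and the grey band spans the 30th percentiles of the 7 arrays; Nrg3 lies below the band on both heterozygous arrays (4.11 and 4.02) and above it on the other 5, and wild-type Egfr (6.19 and 5.98) lies below the other 5 arrays.

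Nrg3 was dim. It exceeded the 30th percentile on all 5 null and wild-type arrays and fell below it on both heterozygous arrays (percentiles 4.90 and 4.90). It thus passed the filter only through the groups in which it was high, and a level so dim gives only a bound on the fold. With the heterozygous arrays set to their own 30th percentiles, mean Nrg3 was 2.10-fold lower in heterozygous than in wild-type cells. Likewise it was 1.44-fold higher in null than in heterozygous cells. These folds bound the difference of the group means measured here and leave out the spread among arrays. Without any filter the differences were the same and the adjusted p-values were 0.0077 for heterozygous against wild type and 0.0145 for null against heterozygous. The second Nrg3 probe set lay below the percentile on all 7 arrays, at 3.33, 3.00 and 3.00 on null, 2.91 and 2.84 on heterozygous and 3.00 and 3.01 on wild-type arrays. Its heterozygous values were also the lowest, but it differed from wild type by only -0.13 (interval -0.45 to 0.19).

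The calls for Nrg3 depended on the arrays and on the fit. Leaving out null replicate 1 and heterozygous replicate 1 together gave -1.95 (adjusted p = 0.102) for heterozygous against wild type and 1.46 (adjusted p = 0.170) for null against heterozygous. Leaving out heterozygous replicate 1 alone gave 1.41 with an adjusted p of 0.0812 in null against heterozygous cells. Over the 7 arrays left out singly, the difference between heterozygous and wild-type cells ran from -2.205 to -1.61, with adjusted p between 0.0105 and 0.0402, and that between null and wild-type cells from -0.842 (without wild type replicate 1) to -0.249 (without wild type replicate 2). With all arrays, a fit without moderation gave an adjusted p of 0.0585 for heterozygous against wild type and 0.0961 for null against heterozygous. Averaging both Nrg3 probe sets gave smaller differences that still passed, -1.02 in heterozygous against wild-type cells (adjusted p = 0.00809) and 0.80 in null against heterozygous cells (adjusted p = 0.0136).

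Over the 7 arrays Nrg3 had the largest SD of the members tested. Its SD over the 7 arrays was 0.83, larger than that of 97.6% of the genes tested, whereas the SD of the other 5 members lay between 0.17 and 0.22, near the median of 0.19 over all genes. The 3 genes whose pattern over the 7 arrays was most like that of Nrg3, among 9242 genes, were Vstm2b (Pearson r = 0.992), Wac (r = 0.990) and Jag1 (r = 0.989), the gene of a Notch ligand. Jag1 stood at 7.12, 6.87 and 7.17 on null, 5.87 and 5.67 on heterozygous and 7.17 and 7.73 on wild-type arrays. Wac had the same order at a far smaller range, from 10.36 on a heterozygous array to 10.61 on a wild-type array. With 7 arrays, such correlations mostly reflect which arrays lie low, here the heterozygous pair, and they are given as a description.

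**Figure D2:**
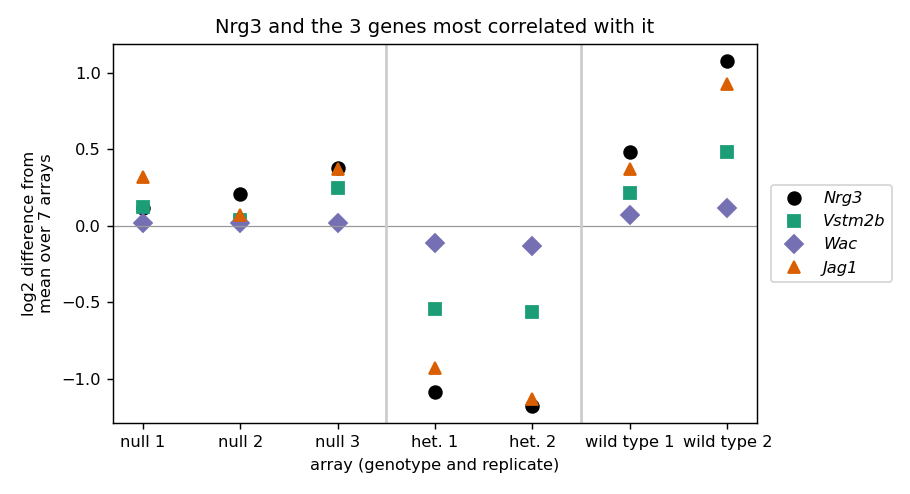
Log2 difference of Nrg3, Vstm2b, Wac and Jag1 from each gene's own mean over the 7 arrays (y axis) on each array (x axis, by genotype and replicate). All 4 genes are lowest on the heterozygous arrays, with the widest range for Nrg3 (4.02 to 6.27) and the narrowest for Wac (10.36 to 10.61).

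Markers of several cell types differed on the heterozygous arrays, where Nrg3 was low. Olig2, a transcription factor of oligodendrocyte progenitors, stood at 11.50, 11.43 and 11.49 on null, 10.78 and 11.02 on heterozygous and 11.47 and 11.67 on wild-type arrays. Of 9 neuronal markers on the array 5 passed the filter. In heterozygous against wild-type cells Snap25 (-0.84) and Gad1 (-1.25) fell, while Nefm (0.60), Tubb3 (0.52) and Nefl (0.44) did not pass, and the median of the 5 was 0.44. The summed level of the 9, to which brighter genes add more, was 11.25 to 11.42 on null, 10.50 to 10.82 on heterozygous and 11.30 to 11.40 on wild-type arrays. The neuronal markers Gad2, Rbfox3, Slc17a6 and Syt1 did not pass the filter. Of 9 astrocyte markers, 3 rose (Gfap by 1.49, Aldh1l1 by 1.46 and Sox9 by 1.34) and 1 fell (S100b, -0.76) in heterozygous against wild-type cells, with a median of 1.34. Their summed level was 13.16 to 13.44 on null, 12.93 to 13.13 on heterozygous and 13.02 to 13.25 on wild-type arrays. Of all 9243 genes tested, 388 rose and 550 fell in heterozygous against wild-type cells. Of 8 markers of myelinating oligodendrocytes 0 passed the adjusted threshold, with a median of 0.59. Differences were positive for Cldn11 (1.23), Mog (0.96), Mag (0.94), Mal (0.64) and Mobp (0.54), and negative for Ugt8a (-0.27), Cnp (-0.11) and Mbp (-0.08). The part of these markers, and of the macrophage markers above, in the Nrg3 result was not tested.

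Among the receptors, Egfr showed the clearest split, with wild type below both deficient groups. The brightest Egfr probe set read 6.56, 6.42 and 6.44 on null, 6.39 and 6.63 on heterozygous and 6.19 and 5.98 on wild-type arrays. All 5 deficient arrays lay above both wild-type arrays, as they did for 7.11% of all genes tested, and 15.4% separated in either direction. The two-sided exact permutation test between deficient and wild-type arrays had p = 0.0476, the lowest value possible with 21 splits. For the other members this permutation test gave p = 0.0952 (Nrg3 and Tgfa), 0.1905 (Erbb2), 0.2857 (Hbegf) and 0.6667 (Erbb3). The limma differences were 0.42 ± 0.13 (SE, interval 0.11 to 0.74, unadjusted p = 0.0158, adjusted p = 0.0878) in heterozygous against wild-type cells and 0.38 ± 0.12 (interval 0.10 to 0.67, unadjusted p = 0.0160, adjusted p = 0.8825) in null against wild-type cells, so neither passed the threshold. Null and heterozygous cells differed by -0.04 (interval -0.33 to 0.25). Without null replicate 1 and heterozygous replicate 1 the differences from wild type were 0.55 in heterozygous and 0.34 in null cells. The 2 comparisons with wild type share the wild-type arrays and are not independent of each other.

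The other 4 Egfr probe sets were dimmer and gave no such split. Of these, 1 exceeded the 30th percentile on 2 arrays and the other 3 on 0. Their differences ran from 0.04 to 0.17 in heterozygous against wild-type cells and from -0.20 to 0.23 in null against wild-type cells, and their Pearson correlation with the brightest probe set over the 7 arrays ran from -0.01 to 0.61. The 3 genes most like the brightest Egfr probe set were Tcl1b3 (r = 0.980), Aldh16a1 (r = 0.974) and Smc1b (r = 0.969).

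Erbb2, like Egfr, was lowest on the wild-type arrays, but at the edge of the dim range. Its single probe set read 5.35, 4.98 and 4.94 on null, 4.98 and 4.99 on heterozygous and 4.79 and 4.76 on wild-type arrays. Both wild-type arrays lay below their own 30th percentile (4.84 and 4.82) and the other 5 above, so Erbb2 passed the filter only through the groups in which it was higher. The differences were 0.31 ± 0.14 (SE, interval -0.02 to 0.64, adjusted p = 0.8825) in null and 0.21 ± 0.15 (interval -0.15 to 0.57, adjusted p = 0.404) in heterozygous against wild-type cells. Null replicate 1 alone held the highest value, and without it null cells were at 0.18 against wild type. The difference between null and heterozygous cells was 0.10 (interval -0.23 to 0.43).

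Erbb3 did not follow genotype. It stood at 10.04, 9.78 and 10.07 on null, 9.59 and 10.24 on heterozygous and 9.86 and 9.87 on wild-type arrays. The lowest and the highest of these values were the heterozygous pair, which enclosed all other arrays. Differences were 0.09 (interval -0.37 to 0.55) in null and 0.05 (interval -0.46 to 0.55) in heterozygous against wild-type cells, so a change of more than about 0.55 in either direction lies outside both intervals. In null against heterozygous cells the difference was 0.04 (interval -0.42 to 0.50). The genes most like Erbb3 were Ppib, Mindy1 (both r = 0.947) and Wbp1l (r = 0.939). The second Erbb3 probe set lay below the 30th percentile on all arrays.

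Erbb4, the receptor for Nrg3, read 3.19, 3.13 and 3.08 on null, 3.49 and 3.13 on heterozygous and 3.13 and 3.00 on wild-type arrays. With all values below the 30th percentile, from which no level can be taken, no fold is given. In a fit of every probe set without a filter, the 3 differences lay between -0.18 and 0.24, with limma adjusted p of 0.355 or more.

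**Figure D3:**
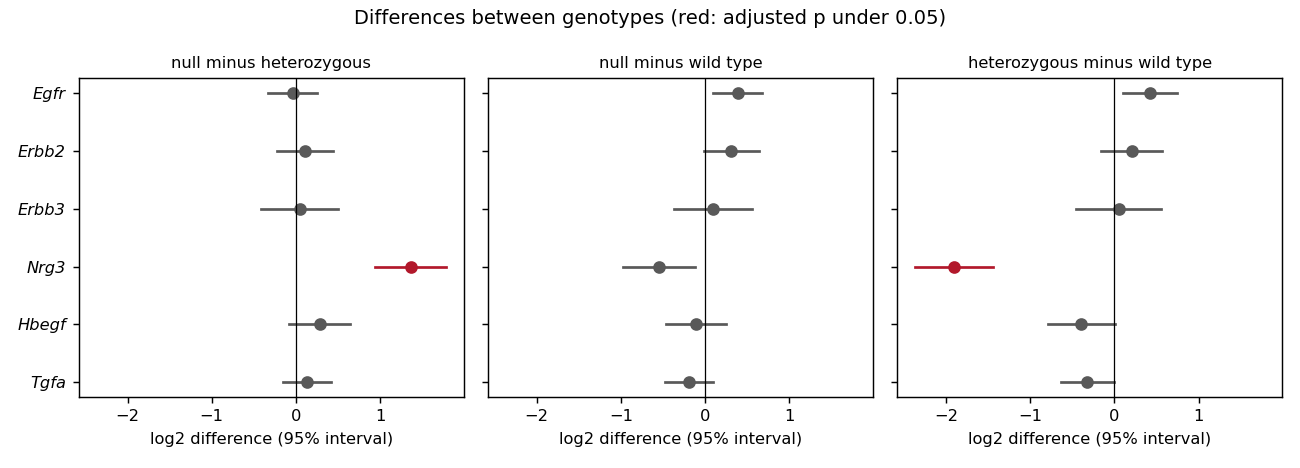
Log2 difference (x axis) with its 95% interval for the 6 genes tested (y axis) in null minus heterozygous, null minus wild type and heterozygous minus wild type. Nrg3 passed the threshold in the first (1.36) and the last (-1.91) comparison. Before adjustment, the intervals of Egfr in both comparisons with wild type also exclude 0 without passing. The same holds for Nrg3 in null minus wild type and for Tgfa in heterozygous minus wild type.

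The EGFR ligands Tgfa and Hbegf did not pass the test in any of the 3 comparisons. Tgfa, which encodes TGF-alpha, stood at 11.43, 11.46 and 11.49 on null, 11.16 and 11.51 on heterozygous and 11.67 and 11.65 on wild-type arrays. All 5 deficient arrays lay below both wild-type arrays, as for 8.28% of genes, and the exact permutation test gave p = 0.0952. The differences from wild type were -0.19 ± 0.12 (SE, interval -0.48 to 0.09, adjusted p = 0.894) in null and -0.32 ± 0.13 (interval -0.64 to -0.01, unadjusted p = 0.0443, adjusted p = 0.157) in heterozygous cells. Heterozygous replicate 1 was the lowest array, and without it the heterozygous difference was -0.15. The other pair of Tgfa probe sets read between 6.09 and 6.61 and showed no split. In 1 of them 4 of the 7 arrays, null replicates 1 and 2 and both wild-type arrays, held an identical value of 6.33. The genes most like Tgfa were Mavs (r = 0.998), Lbx1 (r = 0.989) and Zfp493 (r = 0.984).

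Hbegf, which encodes heparin-binding EGF, a ligand of EGFR and ErbB4, was lowest in heterozygous cells in both of its probe sets. The brightest read 8.51, 8.67 and 8.82 on null, 8.49 and 8.28 on heterozygous and 8.59 and 8.96 on wild-type arrays. The heterozygous arrays lay below the other 5, as for 22.3% of genes, though only by 0.02 in the case of replicate 1. The differences were -0.39 ± 0.17 (SE, interval -0.79 to 0.003, adjusted p = 0.170) in heterozygous against wild-type, 0.28 ± 0.15 (interval -0.08 to 0.64, adjusted p = 0.275) in null against heterozygous and -0.11 (interval -0.47 to 0.25) in null against wild-type cells. The second probe set correlated with the first at r = 0.93 over the arrays and differed by -0.50 (interval -0.88 to -0.13) in heterozygous against wild-type cells, with an adjusted p of 0.116 over all probe sets. In that second probe set null replicate 1 (8.02) lay between the heterozygous values of 8.06 and 7.68. Without null replicate 1 and heterozygous replicate 1 the brightest probe set differed by -0.50 in heterozygous against wild-type cells. Ccdc163, Zfp213 and Pld2 were the genes most like Hbegf (r = 0.983, 0.976 and 0.969).

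**Figure D4:**
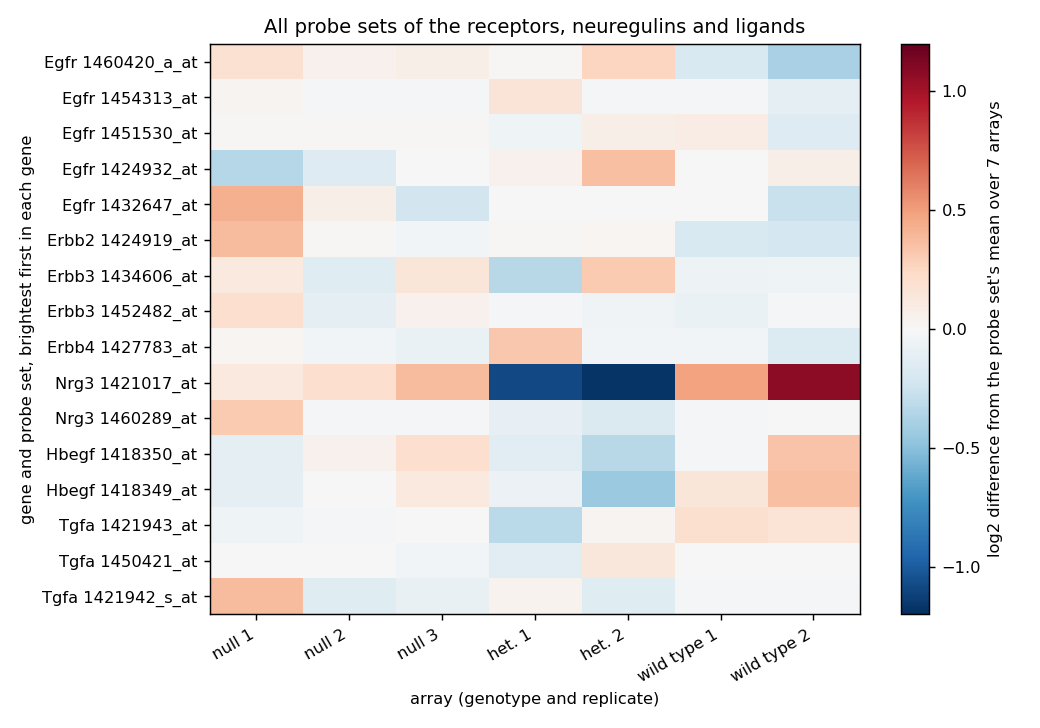
All 16 probe sets (rows, brightest first within each gene) on the 7 arrays (columns, by genotype and replicate), coloured by the log2 difference from the probe set's mean over the arrays. The brightest Nrg3 probe set is the darkest row, the Hbegf probe sets resemble each other (r = 0.93), and the brightest probe sets of Egfr and Tgfa are not matched by the other probe sets of the same gene.

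Over the 6 members tested, the threshold was passed by 1 in heterozygous against wild-type cells (Nrg3, lower), by 1 in null against heterozygous cells (Nrg3, higher) and by 0 in null against wild-type cells, where 2 (Egfr and Nrg3) had an unadjusted limma p under 0.05, against 5.14% of all genes. Their median differences were -0.14, 0.12 and -0.01, and those of all genes tested were -0.04, 0.04 and -0.00075. Groups did not overlap for 5 of the 6 in heterozygous against wild-type cells, 2 higher and 3 lower, while this held for 61.3% of all genes (26.2% higher and 35.1% lower). In null against heterozygous cells it held for 2, both higher, and for 43.7% of all genes (25.7% higher). In null against wild-type cells it held for 4, 2 higher and 2 lower, and for 21.7% of all genes (10.7% higher and 11% lower). Taking null and heterozygous arrays together against wild type, 4 of the 6 separated, and so did 15.4% of all genes. Since Nrg3 and Erbb2 passed the filter only through their higher groups, these counts describe the 6 genes and support nothing further.

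Other genes of the pathway were read from lists of ligands, of the machinery that sheds ligands, of adaptors and effectors and of inhibitors. Of 7 other ligands listed, 5 were on the array and 1, Egf, passed the filter. Egf was dim, and on heterozygous replicate 1 it lay below that array's 30th percentile (4.90). On the remaining arrays apart from null replicate 1 it lay just above their percentiles (4.82 to 4.90). Egf differed by -0.16 ± 0.21 (SE) in heterozygous and by 0.22 in null cells, both against wild type, and was highest on null replicate 1 (5.40, against 4.96 and 4.90 on the other null arrays, 4.48 and 4.93 on heterozygous and 4.86 and 4.88 on wild-type arrays). Of 8 shedding genes tested, 1 fell and 0 rose in heterozygous against wild-type cells, with a median of -0.26, in a comparison in which 5.95% of all genes fell and 10.1% passed in either direction. The gene that fell was Adam12, a metalloprotease that can release Hbegf, by 0.64 ± 0.13 on the log2 scale (adjusted p = 0.0288), with 9.78 and 9.77 on heterozygous against 10.54 and 10.29 on wild-type arrays. Its second probe set differed by -0.77 and did not pass (limma adjusted p = 0.106 over all probe sets). The Adam12 call also ended with the replicate block (adjusted p = 0.0869) and with only the 2 genotypes compared (adjusted p = 0.0731). The sheddases Adam9 (-0.38) and Adam10 (-0.21) and the inhibitor Timp3 (-0.77) did not pass. Without null replicate 2, which left the difference unchanged, Timp3 did pass (limma adjusted p = 0.0391). In null against heterozygous and null against wild-type cells 0 of the 8 passed.

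Of 14 adaptors and effectors, 3 fell and 0 rose in heterozygous against wild-type cells, with a median of -0.21, beside the same 5.95% and 10.1% of all genes. Gab1, a docking protein that carries the signal of EGFR to its effectors, stood at 10.94, 11.05 and 10.96 on null, 10.20 and 10.58 on heterozygous and 11.04 and 10.98 on wild-type arrays. It fell by 0.62 ± 0.14 (adjusted p = 0.0421) in heterozygous against wild-type cells and was higher by 0.59 ± 0.13 (adjusted p = 0.0404) in null against heterozygous cells, where it was the 1 gene of the 14 that passed (8.96% of all genes passed there). The call between null and heterozygous cells ended without the pair of arrays with Xist and Y-linked RNA (0.42, adjusted p = 0.237), without heterozygous replicate 1 alone (0.40, adjusted p = 0.190), without any single null or wild-type array, with the replicate block (adjusted p = 0.144) and in both other probe sets (adjusted p = 0.0615 and 0.0899). Its other probe sets differed by -0.64 and -1.05 in heterozygous against wild-type cells. Sos2, an exchange factor that activates Ras, fell by 0.60 ± 0.13 (adjusted p = 0.0326), with 9.20 and 9.28 on heterozygous against 9.86 and 9.82 on wild-type arrays. Stat5b, a transcription factor downstream of ErbB and cytokine receptors, fell by 0.51 ± 0.13 (adjusted p = 0.0490), but its other probe set differed by only -0.06. Eps8, a substrate of EGFR, differed by -0.35 without passing. The calls for Adam12, Gab1, Sos2 and Stat5b in heterozygous against wild-type cells ended without null replicate 1 and heterozygous replicate 1 (adjusted p between 0.175 and 0.227). Each also ended when heterozygous replicate 1 or either wild-type array was left out alone.

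Of 11 inhibitors of the receptors, 0 passed in each of the 3 comparisons, and their median in heterozygous against wild-type cells was -0.0042. Errfi1, which binds and blocks the EGFR kinase and is itself induced by EGFR signalling, differed by -0.52 ± 0.17 (SE, adjusted p = 0.0915), with 8.39 and 8.16 on heterozygous against 8.89 and 8.69 on wild-type arrays. Socs5 differed by -0.49, the phosphatase Ptprj by -0.46 and Ptpn1 by 0.24. With arrays left out singly, the Ptprj difference ran from -0.756 to -0.173, and whether it passed depended on the array left out. In null against wild-type cells 0 genes of any of these lists passed limma's threshold, as 0 of 9243 did in the whole table (475 had an unadjusted p under 0.05).

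**Figure D5:**
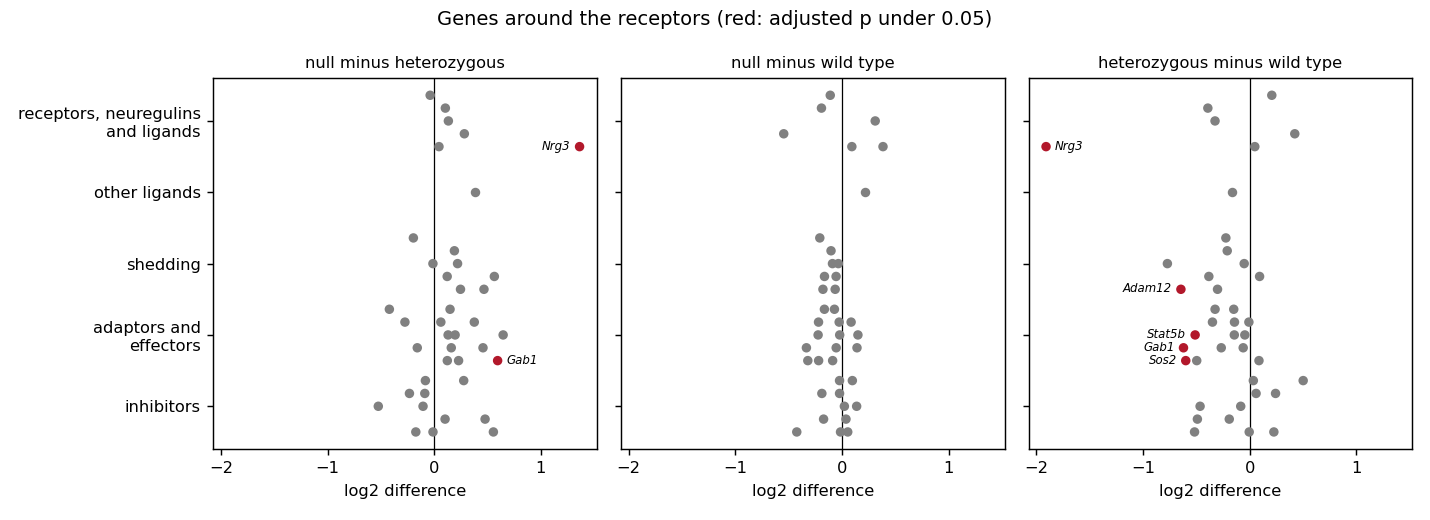
Log2 differences (x axis) of the genes tested in each list (y axis: the receptors, neuregulins and ligands, other ligands, shedding, adaptors and effectors, inhibitors) in the 3 comparisons, with genes past the adjusted threshold in red. In heterozygous minus wild type these are Nrg3, Adam12, Gab1, Sos2 and Stat5b, all below 0, and in null minus heterozygous Nrg3 and Gab1, both above 0.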

How the data were processed

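RNA of sorted tumour cells was labelled by priming from the 3' end and measured on 7 Affymetrix arrays. The authors deposited log2 expression values, made by RMA in Partek 6.6 as far as the submitters' processing notes show. RMA gives all arrays 1 distribution, so a shift of all genes cannot be seen. The genome build is not given in the sources used here. Precision is set by how few arrays there are. Of 22690 probe sets, 64 were controls. Of the rest, 20380 named 1 gene, 691 several and 1555 none.

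One mean per genotype was fitted over all arrays (limma 3.58.1, R 4.3.3). P-values are two-sided and Benjamini-Hochberg adjusted over all 9243 genes that passed the filter (threshold 0.05), and the fit was tested on simulated data. The members, lists and alternatives were chosen with earlier results of these data known. Named are all members, Ptprd, up to 4 genes of smallest p in heterozygous against wild type per list, and the 3 genes most correlated with each member (for Erbb2, Sh3pxd2a, Slc30a3 and Gdf11, at r = 0.980, 0.979 and 0.971). Single marker genes were named after their values were seen.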

Additional observations from a re-analysis of the deposited data

How the results depend on the processing

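The number of genes called depended on the arrays and on moderation. With arrays left out singly, the count ran from 90 to 732 in null against heterozygous cells (828 with all arrays), from 33 to 802 in heterozygous against wild-type cells (938), from 34 to 470 in the F test (522) and from 0 to 1 in null against wild-type cells (0), and the members called ran from 0 to 1 in null against heterozygous cells and in the F test and stayed at 1 and 0 in the other comparisons. Without null replicate 1 and heterozygous replicate 1, which leaves a lone heterozygous array assumed to vary like the other groups, limma called 0 genes and 0 members in each comparison and in the F test (1426, 1802 and 1338 genes at an unadjusted p under 0.05 in null against heterozygous, heterozygous against wild type and the F test). Without moderation the counts were 2, 97 and 21 genes in that order and 0 members, with 1 gene in null against wild type. With the 3' minus 5' covariate they were 469, 372 and 217, with the pair of genotypes alone 355 and 172, and trended robust moderation gave 821 in the F test. Averaging the probe sets of each gene gave 1 gene in null against wild type. With the filter at the 50th percentile 0 members were called, since Nrg3 was not tested there. Deviations of same-numbered arrays correlated at -0.414 to 0.111. In groups of 2 arrays the deviations mirror each other, so these correlations cannot settle whether the replicate numbers pair the arrays. With the replicate block the counts were 25, 217 and 29 genes, and 0, 1 and 0 members. These small, uncalled differences changed sign. In null against heterozygous cells, Egfr was at 0.096 and 0.009 in other probe sets, Erbb2 at -0.033 without the pair of arrays, Erbb3 at -0.316 without that pair and -0.01 with the block, and Tgfa at -0.027 without the pair and -0.015 in another probe set. In null against wild type, other probe sets gave -0.199 for Egfr, 0.107 for Nrg3 and 0.065 for Tgfa. In heterozygous against wild type, Erbb3 was at -0.067 with the covariate, Tgfa at 0.002 in another probe set and Egf at 0.059 without the pair. With arrays left out singly, null against heterozygous ran from -0.161 to 0.085 for Egfr, -0.026 to 0.179 for Erbb2, -0.278 to 0.367 for Erbb3 and -0.042 to 0.307 for Tgfa, Erbb3 from -0.274 to 0.371 and Egf from -0.383 to 0.059 in heterozygous against wild type, and Hbegf from -0.293 to 0.074 in null against wild type. The cause was not tested.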
